A study of Mus musculus with 16 samples.

Results

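The 1000 distal accessible regions with the most accessible neighbours were examined, out of 127646 accessible regions listed for mouse embryonic stem cells. A region was called distal when its centre lay more than 1 kb from the centre of every transcription start site (TSS) window of the same deposit, which left 105922 autosomal regions. The regions were ranked by the number of other regions with a centre within 25 kb, with ties taken by chromosome and then by start. Position alone thus chose the 1000 members, and no signal value entered the rule. The accessible regions themselves were called by the authors, and from which libraries was not given in the sources used here.

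The assay was ATAC-seq, which reads open DNA through adaptors that a transposase places there. All cells carried the genotype FOXD3-iKO, were grown in L2i medium and were treated for 24 h, either with tamoxifen (4HT), which per the labels induces the loss of the transcription factor FOXD3, or with ethanol (EtOH) as control. They were sorted by DNA content, read with the dye DAPI, into fractions labelled G1, ES, LS and G2, and ES and LS are used here as the labels give them. Each of the 8 groups had 2 libraries, but the deposited tables hold 1 column per group, so that every value is a pooled value without an SD, and p-values measure the spread among pooled columns rather than among cultures.

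Accessible sites away from promoters are often enhancers, where transcription factors bind and keep nucleosomes off the DNA. In embryonic stem cells, many such sites packed close together mark the neighbourhoods of genes that set cell identity, and the term super-enhancer is used for the strongest of them. FOXD3 is a forkhead factor that binds distal sites in these cells, and the NANOG protein and the microRNAs of the Mir290 cluster belong to the network that keeps the cells pluripotent.

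The members had 13 to 20 neighbours each. The rule's threshold fell within a tie, since 749 distal regions had at least 14 neighbours and 795 had 13. Of those 795, the 251 taken all lay on chromosomes 1 to 5, so that low-numbered chromosomes were favoured. Chromosome 6, where no tied region was taken, held 109 members, or 1.56% of its distal regions. Chromosome 2 held 129 members, chromosome 4 held 124 and chromosome 3 held 116.

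Members with neighbouring centres at most 25 kb apart were joined into 215 loci. The median locus had 3 members, 46 loci had a single member and 27 had at least 10. Loci with 2 or more members spanned a median of 15.4 kb, and the widest spanned 84.5 kb. A RefSeq TSS of a protein-coding gene lay inside 30 loci, and 142 loci overlapped a protein-coding gene. Chromosome 18, with 29 members, was not looked up for RefSeq TSSs or promoters in any of the counts given here. Of the members, 49.6% lay inside a protein-coding gene, against 50.03% of the other distal regions.

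The largest locus, chr6:143091006-143175514 in mm10, held 29 members and 34 regions in all, together with the TSSs of C2cd5 and Etnk1, an ethanolamine kinase gene. The other large loci lay at Syde2 on chromosome 3 (17 members), 3.81 kb from Cd9 on chromosome 6 (15 members) and at Tgif1 on chromosome 17 (15 members). Cd9 encodes a tetraspanin of the cell surface, and Tgif1 encodes a homeobox repressor. Loci of 14 members lay at Dhrs3, at Axin2, a feedback inhibitor and target of Wnt signalling, and at Kat2b, a histone acetyltransferase gene. Loci of 13 members lay at the eye and brain regulator Pax6, near Nanog and reaching into the glucose transporter gene Slc2a3, and around Coil, Elobl, Scpep1 and Trim25. These 10 loci held 157 of the 1000 members.

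No genome sequence was read for the members themselves, but RefSeq promoters (GRCm38.p6, the assembly named mm10, 250 bases before to 50 after a start) overlapped some of them. There were 22 such promoters, of 19 genes. For 6 of the 10 largest loci the promoter with the most bases inside a member is given. These are examples of members that overlap a promoter and do not describe the DNA of the other members. Capitals mark the bases inside the member, and each sequence runs 5′ to 3′ on the strand of its gene.
Gm38921 (largest locus, between C2cd5 and Etnk1; chr6:143146779-143147078, plus strand, 161 bases inside a member): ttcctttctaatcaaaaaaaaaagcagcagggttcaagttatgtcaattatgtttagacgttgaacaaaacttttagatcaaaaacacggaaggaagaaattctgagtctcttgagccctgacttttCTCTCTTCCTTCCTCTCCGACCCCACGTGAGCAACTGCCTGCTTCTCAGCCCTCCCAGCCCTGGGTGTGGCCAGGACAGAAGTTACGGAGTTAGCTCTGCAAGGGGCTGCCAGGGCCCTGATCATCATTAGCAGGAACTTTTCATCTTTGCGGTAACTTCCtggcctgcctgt
Gm32673 (locus near Cd9; chr6:125430680-125430979, plus strand, 203 bases inside a member): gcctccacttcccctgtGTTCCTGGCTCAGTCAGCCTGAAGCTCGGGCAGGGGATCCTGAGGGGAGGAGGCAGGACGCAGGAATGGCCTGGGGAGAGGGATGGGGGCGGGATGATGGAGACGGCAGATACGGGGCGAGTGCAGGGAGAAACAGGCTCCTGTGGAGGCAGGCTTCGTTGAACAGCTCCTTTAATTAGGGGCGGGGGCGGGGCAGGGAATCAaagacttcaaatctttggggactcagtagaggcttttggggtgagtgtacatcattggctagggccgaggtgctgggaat
Tgif1 (Tgif1 locus; chr17:70851161-70851460, minus strand, 300 bases inside a member): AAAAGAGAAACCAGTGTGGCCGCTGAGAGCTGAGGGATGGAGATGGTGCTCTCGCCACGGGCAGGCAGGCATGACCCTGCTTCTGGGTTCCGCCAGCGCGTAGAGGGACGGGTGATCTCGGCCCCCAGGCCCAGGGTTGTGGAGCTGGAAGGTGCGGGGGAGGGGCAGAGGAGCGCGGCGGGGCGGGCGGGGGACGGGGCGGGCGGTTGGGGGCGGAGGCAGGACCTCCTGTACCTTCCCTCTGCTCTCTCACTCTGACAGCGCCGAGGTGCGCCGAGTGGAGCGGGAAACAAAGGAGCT
Gm46298 (Axin2 locus; chr11:108910910-108911209, minus strand, 300 bases inside a member): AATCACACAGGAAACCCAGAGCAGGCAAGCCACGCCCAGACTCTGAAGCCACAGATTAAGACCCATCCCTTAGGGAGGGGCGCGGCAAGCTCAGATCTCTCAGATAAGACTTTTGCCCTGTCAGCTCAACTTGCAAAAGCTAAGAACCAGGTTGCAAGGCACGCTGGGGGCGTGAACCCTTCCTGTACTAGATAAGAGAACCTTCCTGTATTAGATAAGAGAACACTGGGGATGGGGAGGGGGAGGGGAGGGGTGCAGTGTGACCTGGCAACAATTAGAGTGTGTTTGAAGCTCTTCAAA
Kat2b (Kat2b locus; chr17:53583876-53584175, plus strand, 213 bases inside a member): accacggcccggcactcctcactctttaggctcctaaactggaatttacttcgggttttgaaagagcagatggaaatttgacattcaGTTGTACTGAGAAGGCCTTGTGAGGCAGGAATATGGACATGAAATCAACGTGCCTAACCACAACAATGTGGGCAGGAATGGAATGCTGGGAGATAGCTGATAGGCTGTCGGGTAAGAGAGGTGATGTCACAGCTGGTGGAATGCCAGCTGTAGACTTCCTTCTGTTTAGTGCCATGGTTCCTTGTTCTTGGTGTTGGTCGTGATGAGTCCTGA
Coil (locus around Coil; chr11:88973685-88973984, plus strand, 216 bases inside a member): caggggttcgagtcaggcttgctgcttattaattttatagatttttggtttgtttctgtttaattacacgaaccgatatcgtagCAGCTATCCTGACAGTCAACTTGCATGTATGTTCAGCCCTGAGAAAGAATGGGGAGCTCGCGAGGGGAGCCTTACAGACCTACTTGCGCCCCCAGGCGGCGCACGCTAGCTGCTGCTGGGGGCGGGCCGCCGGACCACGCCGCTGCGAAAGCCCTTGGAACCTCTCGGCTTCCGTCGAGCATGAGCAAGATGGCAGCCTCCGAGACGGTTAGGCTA

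The promoter of Tgif1 lay wholly inside a member with a GC content of 68.7% and 23 CpG dinucleotides, and that of Coil, which encodes a protein of Cajal bodies, held 21. The promoters of Gm38921, Gm32673, Gm46298 and Kat2b held 6, 10, 5 and 6. The members behind these 6 promoters had levels between 1.37 and 1.83. The 3 Gm symbols here are long non-coding RNA genes in RefSeq. Across the 22 promoters the median GC content was 55.7%, against 52.7% over all 32851 promoters used. The forkhead motif TGTTTAC, searched on both strands, was in 0 of the 22 promoters, in 2 of the 100 promoters with a start inside a locus (2.0%) and in 3.65% of all promoters. These are matches of letters in windows of 300 bases and describe no binding.

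The authors' signal was read as library-scaled coverage, averaged over those bases of a region that reads cover, in which the smallest value of a column is the worth of 1 read. A level is given as a multiple of that 1-read value, averaged over the 8 columns with a missing value counted as 0. The implied depth was 6.78 to 11.2 M reads per column, so most regions rest on very few reads. The median level of the members was 1.21 (quartiles 0.895 and 1.58), against 0.946 (0.646 and 1.28) in the 104922 other distal regions and 1.51 in the 18522 proximal regions. A read was present in all 8 columns in 39.5% of the members, 24.6% of the other distal regions and 64.8% of the proximal ones. Members were not wider than other distal regions, with a median of 226 bp against 234 bp. Proximal regions were wider, with a median of 565 bp, and levels were not matched for width. The members therefore stood between other distal regions and promoters in level, and 1 member had no read in any column.

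Across all autosomal distal regions the median level was higher at each step from 0 neighbours (0.733) to 14 neighbours (1.28). At 15, 16 and at least 17 neighbours it was 1.20, 1.14 and 1.20. Just outside the threshold, regions with 12 neighbours had a median level of 1.19, against 1.22 at 13 neighbours. The threshold did not mark a step in level.

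**Figure D1:**
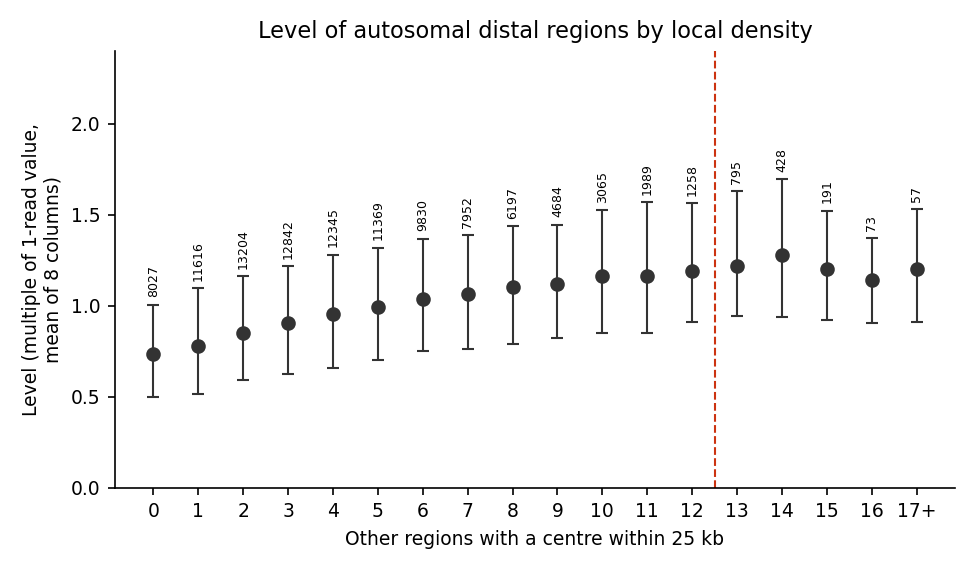
Level of autosomal distal regions (multiple of the 1-read value, mean of 8 columns) against the number of other regions with a centre within 25 kb. Points are medians, bars reach the quartiles, small numbers give the regions per point, and the dashed line is the threshold; the medians go from 0.733 at 0 neighbours to 1.28 at 14.

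The highest member lay at chr8:27240234-27241241, 9.89 kb from Adrb3, a beta-adrenergic receptor gene, with a level of 6.51. Its signal was 0.305, 0.628, 0.830 and 0.810 in EtOH and 0.721, 0.606, 1.03 and 0.642 in 4HT, in the order G1, ES, LS and G2. Its lowest value was EtOH G1 and its highest 4HT LS, and the treatments overlapped. The second, chr6:125433267-125434198, lay in the middle of the Cd9 locus with a level of 5.68. Its signal was 0.419, 0.490, 0.583 and 0.671 in EtOH and 0.509, 0.654, 0.799 and 0.700 in 4HT. The 4HT value was the higher one in each fraction, although the ranges of the treatments overlapped. The other 8 of the 10 highest members had levels of 3.78 to 5.61 and lay near Ptms, in the RNA-binding protein gene Rbpms, in the autophagy gene Gabarapl2, beside the Mir290 cluster, in Tet2, which encodes an enzyme that oxidises methylated cytosine, and near Npr1, Ptma and Ppp1r12a.

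The loci with the most members were not those with the highest levels. Mean levels over the members of the 10 largest loci ran from 0.829 at Syde2 and 0.875 around Coil to 1.66 at Nanog and Slc2a3 and 1.73 near Cd9. The smaller locus beside the Mir290 cluster, with 10 members, had a mean level of 2.15, and the locus of 5 members in Tet2 had 2.24. The Hoxd locus, with 6 members across 55.2 kb that also hold the TSSs of 7 Hoxd genes, had a mean level of 0.793.

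**Figure D2:**
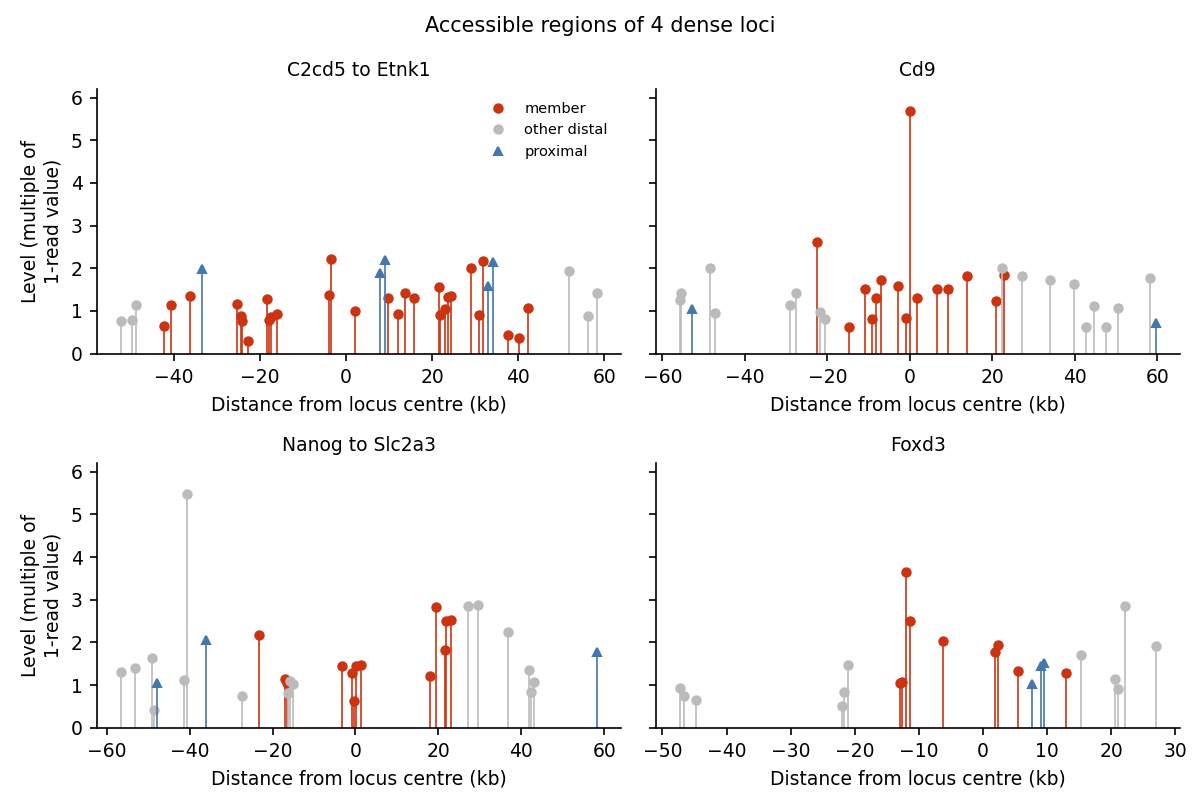
Accessible regions within 60 kb of the centre of 4 loci, with the distance from the locus centre in kb on the x axis and the level (multiple of the 1-read value) on the y axis; red circles are members, grey circles other distal regions and blue triangles proximal regions. A single member of level 5.68 stands out near Cd9, while no member of the C2cd5 to Etnk1 locus exceeds 2.23.

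Genes of 4 lists were looked up for a TSS within 50 kb of a member, or for the nearer gene end where no TSS was listed. Of the 16457 protein-coding genes on autosomes other than chromosome 18, 392 (2.38%) had a TSS that near. Among pluripotency and super-enhancer genes it was 8 of 49 (16.3%), namely Nanog, Klf5, Sall1, Tet2, Mir290a, Mcl1, Zfp704 and Foxd3. Among lineage regulators it was 3 of 30 (Hoxd9, Hoxd13 and Pax6), among imprinted genes 2 of 15 (Cdkn1c and Gnas), and among housekeeping genes 1 of 20 (Hsp90ab1). Klf5, Mir290a, Zfp704, Cdkn1c and Hsp90ab1 were measured from the gene end, and Mir290a is not a protein-coding gene. The lists also keep genes of chromosome 18, such as Gata6. Their shares thus use a looser measure and another set of genes than the 2.38%. These lists were drawn up with earlier results of the data known, so the shares are descriptions. As a check of the cell type, the TSS windows of 10 embryonic stem cell markers had a median level of 1.87, against 1.31 for 7 fibroblast, 1.22 for 7 primitive endoderm and 1.32 for 8 neural crest markers, and 1.37 for all named windows of protein-coding genes. The 16 windows of the housekeeping list also had a median of 1.87, so that value is not particular to stem cell markers. Single markers overlapped, with Esrrb at 1.25 and the primitive endoderm marker Col4a1 at 1.75.

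The strongest of these neighbourhoods held members of clear signal. Multiples grow with the depth of a column, so columns are set side by side here by the library-scaled signal. That signal has a floor of 1 read, which ran from 0.0895 in EtOH G2 to 0.1475 in 4HT G1. Low signals are therefore not free of depth either. Beside the Mir290 cluster, chr7:3201151-3201749 had a signal of 0.350, 0.640, 0.429 and 0.453 in EtOH and 0.376, 0.346, 0.586 and 0.477 in 4HT, in the order G1, ES, LS and G2. In Tet2, chr3:133524431-133525456 had a signal of 0.284, 0.384, 0.7503 and 0.475 in EtOH and 0.395, 0.311, 0.692 and 0.348 in 4HT. The Mir290 member was highest in EtOH ES, the Tet2 member was highest in LS under both treatments, and in both the treatments overlapped. Near Mcl1, which encodes an inhibitor of apoptosis, chr3:95674104-95674598 had a signal between 0.227 in 4HT G1 and 0.501 in EtOH LS. In the locus near Nanog, chr6:122762619-122762802, which lies inside Slc2a3, had a signal between 0.151 in EtOH G2 and 0.580 in 4HT ES.

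Foxd3, the gene whose product is depleted by 4HT, lay in a locus of 9 members. Its highest member, chr4:99635952-99636655, lay 20 kb from the gene, with a signal of 0.194, 0.630, 0.400 and 0.223 in EtOH and 0.573, 0.557, 0.310 and 0.395 in 4HT. The 4HT signal was above EtOH in G1 and G2 and below it in ES and LS, with centred differences of 1.11, -0.09, -0.21 and 0.65 in the order G1, ES, LS and G2. The fitted 4HT minus EtOH difference was 0.37 ± 0.23 (log2, SE), with a Benjamini-Hochberg adjusted p of 0.934 in limma. Over the whole locus, the mean multiple relative to that of other distal regions was 1.41, 2.19, 2.07 and 1.23 in EtOH and 1.82, 2.06, 1.86 and 1.80 in 4HT. Accessibility at the Foxd3 locus was therefore present in every column of both treatments, which is no check of the depletion, since the labels do not say what part of the gene is removed.

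The first contrast asked whether members differed between 4HT and EtOH. In limma, treatment and fraction were fitted together to log2(signal + 0.1) for all 11010 regions read in each of the columns at a level of 2 or more, and 128 of the 1000 members were among them. That filter keeps the strongest members only and leaves out any that lost all reads in a column. No member passed a Benjamini-Hochberg adjusted p of 0.05, nor did any other region (0.0% of those tested), and the smallest adjusted p among members was 0.887. At an unadjusted p under 0.05 there were 11 members (8.59%), 4 higher and 7 lower in 4HT, against 5.42% of all regions tested. The median difference of the tested members was 0.02, with quartiles of -0.15 and 0.18, against 0.00 over all regions.

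Of the tested members, 6 were higher in 4HT in all 4 fractions and 8 were lower in all 4 (4.69% and 6.25%, against 6.69% and 6.66% of all regions tested). In simulated data of the same size, 96.0% of regions changed by 1 log2 unit between treatments were recovered and 5.5% of those changed by 0.5, so that differences of the smaller size could not be seen region by region.

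The members with the largest differences of a single sign are given with these limits. Inside Cdh1, which encodes E-cadherin, chr8:106608439-106608685 had a signal of 0.1004, 0.219, 0.145 and 0.139 in EtOH and 0.321, 0.282, 0.263 and 0.388 in 4HT. All 4HT values lay above all EtOH values, and the difference was 0.72 ± 0.22 (log2, SE) with a limma adjusted p of 0.887. Its EtOH G1 value is the 1-read value of that column. In Etl4, chr2:20669029-20669837 had a signal of 0.204, 0.270, 0.455 and 0.281 in EtOH and 0.163, 0.159, 0.197 and 0.157 in 4HT. All 4HT values lay below all EtOH values here, with a difference of -0.56 ± 0.22 and a limma adjusted p of 0.891. Other differences of a single sign were 0.59 at Trim7, 0.58 at Uck2, 0.30 at Cd9 and 0.24 at Hook2, and -0.50 near Pawr, -0.49 near Rbfa and -0.45 near Usp7.

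**Figure D3:**
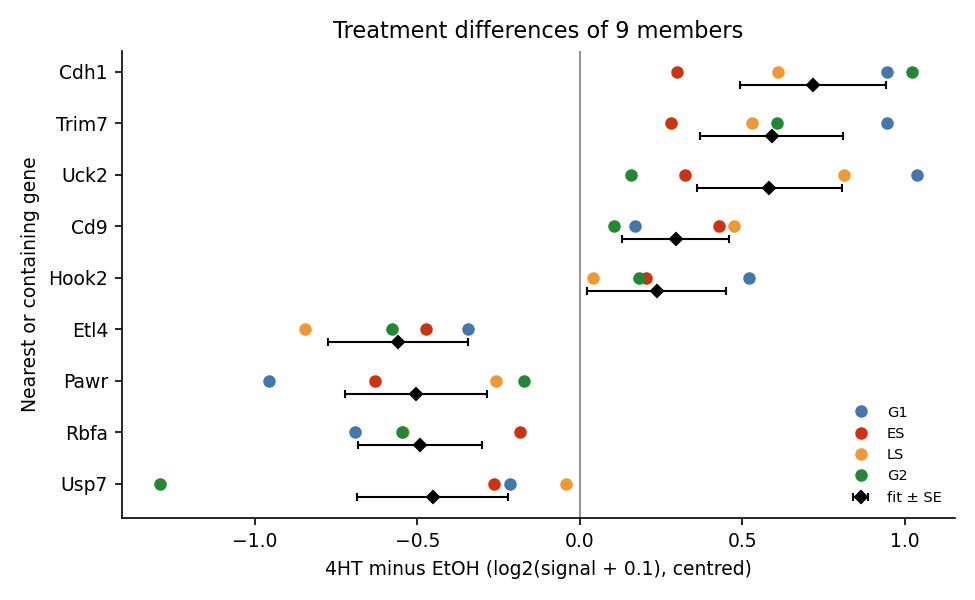
Differences between 4HT and EtOH (log2(signal + 0.1), after centring) for 9 of the tested members with the same sign in all 4 fractions, 5 higher and 4 lower in 4HT; circles are the 4 fractions and diamonds the fitted difference with its SE. The fitted values run from -0.56 at Etl4 to 0.72 at Cdh1, and none passed the adjusted threshold.

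Because single members hold few reads, all regions of each 50 kb stretch of the genome were also summed (signal times width). Of the 1256 stretches with at least 10 regions, 238 held a member, and together they took in 953 members. None of the 1256 passed the adjusted threshold for 4HT against EtOH (0.0%), and the smallest limma adjusted p with Benjamini-Hochberg adjustment was 0.541. The median difference was 0.01 in stretches with a member and 0.00 in all of them. At an unadjusted p under 0.05 there were 19 stretches with a member (7.98%), against 6.61% of all. In simulated data of this size 81.5% of stretches changed by 0.5 log2 units were recovered. All simulated stretches had the same noise level, so real recovery may be lower. Stretches with at least 5 members ran from -0.45 at Nfib, a regulator of lung and brain development, to 0.35 at Irf2bpl.

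Among the 27 loci of at least 10 members, the mean multiple relative to other distal regions was lower in 4HT in all 4 fractions at 2 loci and higher in all 4 at 0. By another measure, the centred sums of signal times width, 7.17% of all tested stretches were lower and 5.25% were higher in all 4 fractions. The 2 loci lay at Pax6 and near Usp7, a deubiquitinase gene. The Pax6 locus stood at 1.13, 1.10, 1.17 and 1.0 in EtOH and 0.729, 0.992, 1.07 and 0.662 in 4HT. The locus near Usp7 stood at 1.65, 1.76, 1.86 and 1.93 in EtOH and 1.41, 1.75, 1.60 and 1.39 in 4HT. The ranges of the treatments overlapped at both, and no test was run on these loci.

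The second set of contrasts compared each fraction with G1. The share of members with a read in a column was 83.4% in EtOH G1 (95% Wilson interval 81.0 to 85.6%), 83.4% in EtOH ES (81.0 to 85.6%), 79.5% in EtOH LS (76.9 to 81.9%) and 85.1% in EtOH G2 (82.8 to 87.2%). In 4HT it was 75.6% in G1 (72.8 to 78.2%), 86.6% in ES (84.3 to 88.6%), 88.0% in LS (85.8 to 89.9%) and 79.9% in G2 (77.3 to 82.3%). These intervals cover counting error over regions only, and the shares themselves move with depth, so each was set against the other distal regions of the same column. Those stood at 75.5, 69.9, 70.2 and 77.7% in EtOH and at 64.5, 73.6, 78.1 and 71.3% in 4HT.

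The odds ratio of holding a read, members against other distal regions, was highest in the ES fraction under both treatments. It was 1.63 in G1, 2.16 in ES, 1.64 in LS and 1.64 in G2 of EtOH, and 1.70, 2.31, 2.05 and 1.60 in 4HT. Depth also differed between the columns. EtOH ES had an implied depth of 8.38 M reads, beside 8.17 M in EtOH LS and 8.87 M in 4HT G2, whose odds ratios were 1.64 and 1.60. The 4HT ES column, at 9.75 M reads, lay beside EtOH G1 at 9.96 M, whose odds ratio was 1.63. The LS columns had 1.64 in EtOH and 2.05 in 4HT, and the latter came close to the EtOH value of ES. With 1 pooled column per group no test of this order was made. Depth and other differences between columns cannot be told apart from fraction, and no cause was tested.

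ES also came first under both treatments in the level, which draws on the same reads. The mean multiple of the members, with multiples limited to 20, was 1.38 times that of other distal regions in EtOH ES and 1.40 times in 4HT ES, against 1.23 to 1.26 times in the G1 and G2 columns and 1.26 and 1.32 times in LS. The share of members above 1 read exceeded that of other distal regions by 20.02 percentage points in EtOH ES and 22.8 points in 4HT ES, against 10.3 to 16.8 points in the other 6 columns. Averaged over treatments, the excess of members with a read was larger in ES than in G1 on 16 of the 19 autosomes and larger than in G2 on 17. Chromosome 19 held 1 member and chromosome 15 held 9, yet each counts as much as the others. All autosomes share the same pooled columns, so they are no repeats, and an excess in percentage points moves with depth.

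Proximal regions served as a comparison. All proximal regions against other distal regions had odds ratios of 3.27 in EtOH G1 and 3.24 in EtOH ES, and 2.94 and 3.29 in 4HT. The 555 proximal regions within 25 kb of a member, set against all other proximal regions, had odds ratios of 0.829 and 1.10 in G1 and ES of EtOH, and 0.826 and 1.24 in 4HT. Promoters near the clusters thus also held reads relatively more often in ES columns than in G1 columns, while promoters as a class did not in EtOH.

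**Figure D4:**
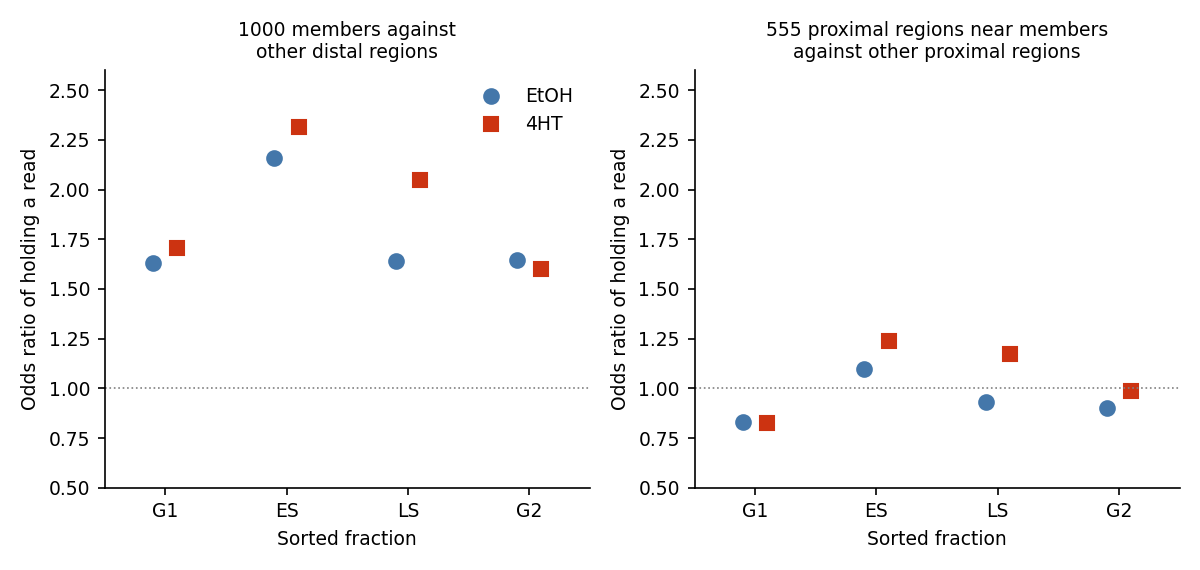
Odds ratio of holding a read in each fraction and treatment, for the 1000 members against other distal regions (left) and for the 555 proximal regions near members against other proximal regions (right); each point is 1 pooled column. On the left the ES points, 2.16 and 2.31, stand above the other 6.

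The relation to density was graded rather than particular to the members. Against all distal regions, and averaged over treatments, the odds ratio went from 0.637 at 0 neighbours to 1.67 at 13 or more in G1, from 0.567 to 2.32 in ES, from 0.607 to 1.88 in LS and from 0.627 to 1.80 in G2. The 4 fractions met near 4 neighbours, where they ran from 1.01 to 1.03. ES had the lowest value of the fractions at 0 neighbours and the highest at 13 or more.

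**Figure D5:**
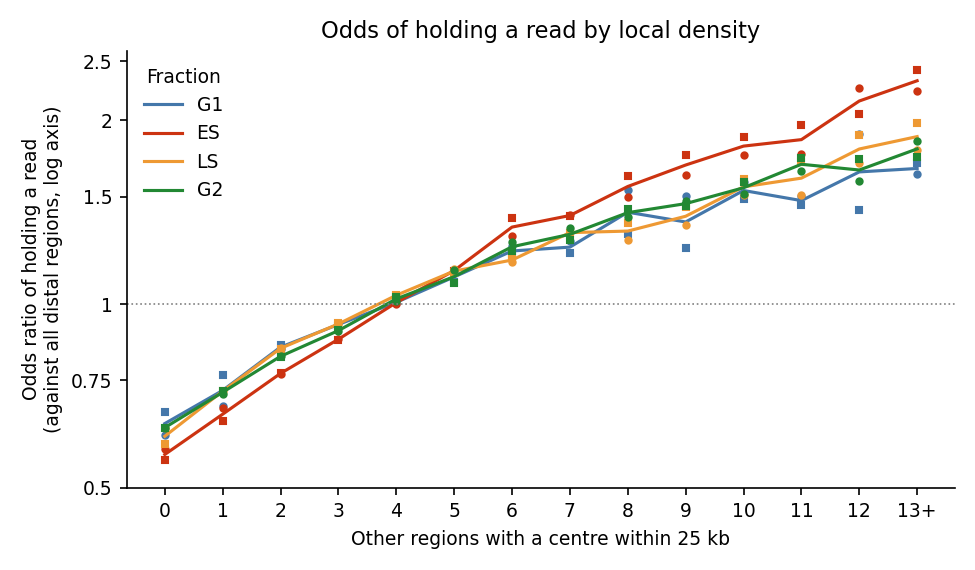
Odds ratio of holding a read against all distal regions (log axis) by number of other regions with a centre within 25 kb; lines are the mean of both treatments on the log scale, circles EtOH and squares 4HT. The ES line is the steepest, from 0.567 at 0 neighbours to 2.32 at 13 or more.

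No member passed the adjusted threshold in limma for ES, LS or G2 against G1, where the smallest Benjamini-Hochberg adjusted p of a member was 0.486, 0.529 and 0.470. Over all regions 0.0%, 0.0% and 0.0182% were called. At an unadjusted p under 0.05 there were 14, 12 and 11 members (10.9, 9.38 and 8.59%), against 7.13, 7.28 and 5.90% of all regions tested. The median ES minus G1 difference of the members was 0.10 (log2), with 77 of 128 above 0, against a median of 0.00 over all regions. The LS and G2 medians were 0.06 and -0.04. These medians moved with the processing. At a level minimum of 3 they were 0.28, 0.17 and 0.09 for ES, LS and G2, so that G2 turned sign, and ES was 0.01 with a pseudocount of 2. Without centring the ES and LS medians were 0.06 and 0.16, which turned their order, while the medians over all regions tested were -0.05 and 0.10. Members higher in ES than in G1 under both treatments numbered 48 (37.5%, against 26.2% of all regions tested), and 25 were lower under both (19.5%, against 26.5%).

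Single members with the largest ES minus G1 differences lay in Ano8 (1.17), Lrrc25 (1.07) and Fbxo36 (1.06). At Lrrc25, chr8:70618746-70619408, the signal was 0.101, 0.402, 0.348 and 0.188 in EtOH and 0.156, 0.326, 0.330 and 0.157 in 4HT. Its ES and LS values all lay above its G1 and G2 values, and its limma adjusted p for ES against G1 was 0.486. The lowest differences lay in Foxn3, a forkhead factor gene (-0.98), near Ssbp4 (-0.76) and near Cnot1, the scaffold of a deadenylase complex (-0.71). At Foxn3, chr12:99343451-99343749, the signal was 0.384 in G1 and 0.119 in ES of EtOH, and 0.273 and 0.103 in 4HT. Both ES values of the Foxn3 member are the 1-read values of their columns. The G1 values at Lrrc25 were also close to it, at multiples of 1.003 in EtOH and 1.06 in 4HT.

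For LS against G1 the largest differences lay in Ccdc124 (0.99), Lrrc25 (0.89) and near Ticam1 (0.82), and the lowest near Ppp1r12a (-0.92), near the histone gene H4c8 (-0.72) and in Cdh1 (-0.70). For G2 against G1 they lay in Ccdc124 (1.11), near Adrb3 (1.0) and near Nanog (0.80), and near C2cd5 (-1.01), in Slc5a5 (-0.96) and beside the Mir290 cluster, nearest to Nlrp12 (-0.75). The member near Nanog, chr6:122719915-122720287, had a signal of 0.138 in G1 and 0.410 in G2 of EtOH, and 0.147 and 0.263 in 4HT. The 2 columns of G2 lay above those of G1, but its 4HT LS value of 0.381 lay between the G2 values. None of these members passed the adjusted threshold. The one in Ccdc124 stood at the 1-read value in EtOH G1, and those near Adrb3 and near Nanog stood at it in 4HT G1.

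Summed over 50 kb stretches, LS against G1 gave the only calls that involved members. In limma with Benjamini-Hochberg adjustment 7 of the 1256 stretches were called (0.557%), 4 higher (0.318%) and 3 lower (0.239%) in LS, and 4 of them held members, 2 in each direction. At an unadjusted p under 0.05 there were 26 stretches with a member (10.9%), against 10.4% of all. The stretch in Lmo7 on chromosome 14, with 11 members, had sums of 217, 562, 573 and 397 in EtOH and 302, 446, 470 and 424 in 4HT, in the order G1, ES, LS and G2. Its lowest value was G1 under both treatments, and LS minus G1 was 1.05 ± 0.25 (log2, SE; limma adjusted p 0.0326). The stretch near Enc1, with 3 members, was also higher in LS, by 0.94.

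The stretch at Gnas, an imprinted gene for a G protein subunit, held 7 members and was lower in LS than in G1, with a difference of -0.69 ± 0.18 (log2, SE; limma adjusted p 0.0356). Its sums were 1145, 889, 766 and 902 in EtOH and 1319, 889, 868 and 1073 in 4HT, with G1 the highest under both treatments. The stretch in Arl15, with 3 members, was also lower in LS, with a difference of -0.75. All 4 calls were lost when no centring was used (limma adjusted p 0.175 at Lmo7, 0.205 near Enc1, 0.267 at Gnas and 0.240 in Arl15), with differences of 1.02, 0.94, -0.59 and -0.69.

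For ES against G1, 2 stretches were called (0.159%) and neither held a member. The Lmo7 stretch was the highest of those with at least 5 members, at 0.97 (limma adjusted p 0.0919), and the Dhrs3 stretch the lowest, at -0.91 (0.289). At an unadjusted p under 0.05 there were 30 stretches with a member (12.6%), against 8.92% of all. For G2 against G1 no stretch was called (0.0%), with 21 stretches with a member (8.82%) against 8.20% of all at an unadjusted p under 0.05. The median differences of stretches with a member were 0.04, 0.01 and -0.01 for ES, LS and G2. Without centring they were 0.08, 0.10 and -0.02, with LS above ES, and with stretches of 100 kb the ES median was -0.01. Of the stretches with a member, 32.4% were higher in ES than in G1 under both treatments and 25.6% were lower, against 26.8% and 27.0% of all stretches. Among the 27 loci of at least 10 members, the level relative to other distal regions was higher in ES than in G1 under both treatments at 17 loci and lower at 4. No such share was taken over loci without members, and the shares of stretches rest on another measure. This count draws on the same values as the ratios of mean multiples given above and is no separate result.

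TSS windows of 5 kb near the clusters gave a further readout, since they were listed in a separate table. There were 509 windows within 25 kb of a member, with a median level of 1.45 against 1.26 for all autosomal windows, and 409 of them were tested. The highest lay at Adnp2 (3.88), Rhpn2 (3.59), Plekhf2 (3.35), Ptma (3.11) and Mrpl34 (3.02). None of the 409 was called in limma in any contrast, at shares over all windows of 0.0131% for 4HT against EtOH, 0.0196% for ES, 0.0718% for LS and 0.0457% for G2 against G1. At an unadjusted p under 0.05 there were 23, 33, 34 and 25 of them (5.62, 8.07, 8.31 and 6.11%), against 5.28, 6.78, 6.90 and 5.64% of all windows tested. The median differences were 0.01, 0.03, 0.03 and 0.02. In these wider windows ES did not stand apart from LS and G2.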

How the data were processed

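ATAC-seq signal came from 16 libraries in 8 groups of treatment and fraction, deposited as 1 column per group and taken as pooled by the authors. The submitters' processing notes name the mm10 build, featureCounts and DESeq2 without saying what each was used for or in which version. For the aligner, the coverage program and the peak caller, no statement is given in the sources used here. The deposited values are coverage signal scaled to library size, as the table headings and values show, and were used as given.

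Regions (11010 with a read in every column and a level of at least 2), TSS windows (15323, level of at least 1.3) and 50 kb stretches (1256, at least 10 regions) were transformed as log2(signal + 0.1) or log2 of the summed signal times width, so that differences of weak regions are understated, and centred by cyclic loess. They were fitted with limma 3.58.1 in R 4.3.3 on treatment and fraction, with 3 residual degrees of freedom and Benjamini-Hochberg adjustment over each whole table at 0.05. The fractions served as repeats for the treatment contrast and the treatments for the fraction contrasts. The fit was tested on simulated data with 200 changed features per table, the same noise level for all features and no other differences between columns.

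The members and gene lists were chosen with earlier results of these data known. Named were the 10 largest loci, the 10 highest members, members and stretches called, or else the most changed with 1 sign (for stretches, the most changed with at least 5 members), the 5 highest windows nearby and list genes within 50 kb. The members near Foxd3, Mcl1 and Nanog shown with their signal are the highest near each list gene, and the loci at Tet2, Hoxd, Pax6 and Usp7 described by level were picked out after their values were seen. Genes were placed with RefSeq tables, and those without a listed TSS were measured from the nearer gene end. Alternatives covered the pseudocount, the filter, the centring, single fractions, stretch size and the membership rule. Those on ties, the 10 largest loci, sums without width and median centring of stretches were chosen after seeing the data. A member that the naming rule takes is not reported here.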

Additional observations from a re-analysis of the deposited data

How the results depend on the processing

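For members, the count called stayed at 0 in all 4 region contrasts under each alternative run: other pseudocounts, filters, centrings and single fractions left out. Stretches with members gave 0 calls for 4HT minus EtOH under each alternative run. For LS minus G1 the count of 4 was 0 without centring, with median centring, with at least 5 regions per stretch, with stretches of 100 kb and with sums without width, and it was 4 without the ES or the G2 fraction. Stretches of 100 kb gave 2 with a member for ES minus G1 and 1 for G2 minus G1, against 0 each at 50 kb. The cause was not tested.

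The median differences over tested members moved in the fraction contrasts. For ES minus G1 the median of 0.10 ran from 0.01 with a pseudocount of 2 to 0.28 at a level minimum of 3, for LS minus G1 that of 0.06 was 0.16 without centring and 0.17 at a level minimum of 3, and for G2 minus G1 that of -0.04 was 0.09 at a level minimum of 3. For stretches with a member, the ES median of 0.04 was -0.01 with stretches of 100 kb, and the LS median of 0.01 was 0.10 without centring.

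The odds ratio in ES over that in G1 was 1.34. It was 1.41 with neighbours counted within 10 kb, 1.72 within 50 kb, 1.16 for 500 members, 1.37 for 2000 members, 1.39 for regions more than 5 kb from a window centre, 1.29 without the tied regions, 1.40 with all tied regions kept and 1.32 without the 10 largest loci. ES stayed above G1 in each of these.

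No paired analysis was possible because the deposited columns carry no replicate number. Depth limits single members: their median level was 1.21, and 128 of the 1000 passed the filter for a test.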
